A study of Mus musculus with 2 samples.

Results

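A set of 10 members of the T-box family of transcription factors was followed in mouse early mesodermal cells with and without a disrupted AU019823 gene. The 10 genes are T (brachyury), Eomes, Tbx1, Tbx2, Tbx3, Tbx4, Tbx5, Tbx6, Tbx18 and Tbx20, taken by symbol from the platform annotation out of 16444 named genes, and each had 1 probe. T was 1.69-fold and Tbx3 1.5-fold higher in the gene-trapped cells, Tbx20 was 1.63-fold lower, and Tbx1 and Tbx18 did not rise above background on either array. No member reached a 2-fold difference in the main setting.

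The study compared 2 samples of embryonic stem cells of the mouse that had been turned into mesoderm by growth on OP9, a stromal line that favours blood formation, and then sorted for surface Flk-1, the product of Kdr. The gene-trapped sample carried a biallelic disruption of AU019823 by a gene trap, a cassette that interrupts a transcript. The revertant sample derived from cells whose genotype is labelled almost identical to wild-type. Both are labelled day 4.5, carry different codes (cl.3 for gene-trapped, cl.4 for revertant) that the labels do not explain, and gave RNA from 300000 and 350000 cells. With 1 array per group and no replicate, every difference below describes these 2 samples, has no replicate check and carries no p-value, and genotype, code and culture cannot be told apart.

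T-box proteins bind DNA through a shared domain that gives the family its name, and act as activators or repressors in the patterning of mesoderm. T and Eomes are switched on in the primitive streak by Nodal and WNT signals, Tbx6 then acts in mesoderm that will form somites, and the Tbx1, Tbx2 and Tbx20 branches shape heart, limbs and pharynx later. Cells with surface Flk-1 stand early on this path, since they are fated to blood, vessels and heart.

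The sequences around the start sites of T, Eomes and Tbx20 are shown because these genes lie at the upper and lower ends of the differences and have an entry in the promoter table. They come from RefSeq (GRCm38.p6), run 5′ to 3′ from 250 bases before to 50 after the start, and lie at chr17:8434173-8434472 (plus strand), chr9:118477939-118478238 (plus strand) and chr9:24774254-24774553 (minus strand). Capitals mark the letters AGGTGTNA, a relaxed half-site for T-box proteins, and CTTTGA, a site for TCF and LEF proteins of the WNT pathway, on either strand.
T: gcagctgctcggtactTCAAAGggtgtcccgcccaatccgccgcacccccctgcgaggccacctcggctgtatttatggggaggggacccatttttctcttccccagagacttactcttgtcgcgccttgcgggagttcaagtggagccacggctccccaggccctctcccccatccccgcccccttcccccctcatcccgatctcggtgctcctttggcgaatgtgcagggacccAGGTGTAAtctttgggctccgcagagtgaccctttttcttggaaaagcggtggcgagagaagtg
Eomes: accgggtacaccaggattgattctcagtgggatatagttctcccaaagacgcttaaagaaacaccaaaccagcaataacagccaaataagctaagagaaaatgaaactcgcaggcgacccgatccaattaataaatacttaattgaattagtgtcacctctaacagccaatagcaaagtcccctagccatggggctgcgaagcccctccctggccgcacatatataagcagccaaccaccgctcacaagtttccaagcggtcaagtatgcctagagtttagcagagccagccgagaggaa
Tbx20: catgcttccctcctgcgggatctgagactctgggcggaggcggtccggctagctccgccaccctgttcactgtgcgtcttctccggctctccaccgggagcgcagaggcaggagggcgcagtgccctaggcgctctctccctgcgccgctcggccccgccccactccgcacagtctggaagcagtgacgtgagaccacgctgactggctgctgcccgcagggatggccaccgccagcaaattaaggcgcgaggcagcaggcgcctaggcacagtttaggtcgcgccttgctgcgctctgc
The T window held 1 match to each, AGGTGTAA starting 14 bases before the start and the reverse complement of CTTTGA starting 234 bases before it, and these matches did not overlap. The Eomes and Tbx20 windows held neither. Among the 8 windows of the 7 members with an entry, AGGTGTNA stood also in 1 of the Tbx1 windows, starting 76 bases before the start, and CTTTGA in that of T alone. Of all 32851 windows of this length, 3.03% held AGGTGTNA and 16% held CTTTGA, while the strict half-site AGGTGTGA stood in 1.28% and in 0 of these 8. The relaxed form was chosen after the T sequence had been seen. A match is a description of letters and shows no binding.

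The scanner files give a linear spot intensity. The background limit, the mean of 2736 blank spots plus 2 SD, was 24.99 for the revertant array and 22.3 for the gene-trapped one. The typical (median) probe read 47.5 in revertant and 38.6 in gene-trapped cells, so raw signals were lower on the latter array. Differences were therefore taken after background correction and quantile normalization, as log2 of gene-trapped minus revertant. The technical spread between spots was taken as the SD of the log2 difference over 24 repeated control spots, after background correction but without quantile normalization. It was 0.107 for one positive control and 0.0988 for another. The spread between cultures was not measured. Signals of different probes are not on a common scale, so levels are compared only within a gene; sums over a list are given between arrays, with and without the genes that move them most.

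AU019823, the disrupted gene, had a spot signal of 486 in revertant against 297 in gene-trapped cells, or -0.39 as log2 difference. Where its probe lies relative to the trap is unknown, and the value does not check the labels. Of 12 listed markers of nascent mesoderm 11 were above background on both arrays, Kdr among them at 1025 and 537. The exception was Msgn1, which passed the limit on the gene-trapped array only. Most named genes also passed on both arrays, 13753 of 16444, so this count does not identify the cells.

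T, the factor needed for posterior mesoderm and notochord, had a spot signal of 129 in revertant cells against 188 in gene-trapped cells. Its normalized log2 level went from 7.18 to 7.93, a difference of 0.76 or 1.69-fold. T had the largest positive difference of the 10 genes in the main setting, and it was higher in all 9 other settings that give it a value, from 0.61 to 1.04. In the authors' deposited table it stood at 69.8 for revertant cells against 144 for gene-trapped ones, a ratio of 2.06.

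Eomes, which acts beside T in the streak and is needed for cells to leave it and for endoderm and cardiac mesoderm, had spot signals of 644 and 771. Its log2 levels were 9.28 and 9.76 in the same order, a difference of 0.48 or 1.40-fold, short of the 1.5-fold size used here. The authors' deposited table gives 408 and 641, a ratio of 1.57. Eomes was thus higher in gene-trapped cells in both sources but on different sides of 1.5-fold. Of all named genes, 8.82% were higher by that size in the authors' values, against 2.28% in the main setting.

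Tbx6, the factor of presomitic mesoderm whose loss turns somites into neural tissue, had spot signals of 97.0 and 90.6 and log2 levels of 6.87 and 7.08. Its difference of 0.20 is opposite in sign to the raw signals, which were lower on the gene-trapped array. Subtraction of the scanner's local background gave -0.10, so no direction can be given for Tbx6.

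The raw signals of the 10 genes are plotted for both arrays.

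**Figure D1:**
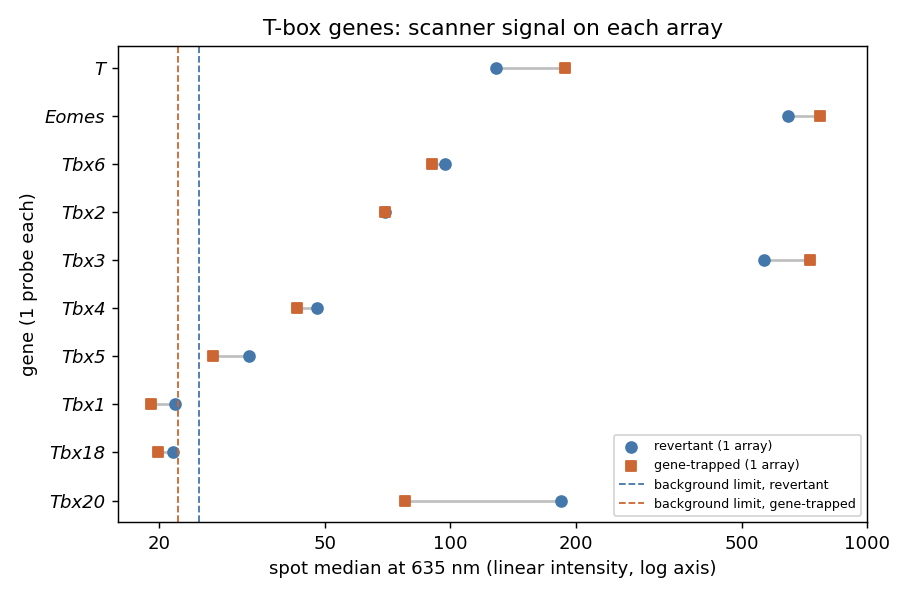
Spot median intensity (log axis) of the 10 T-box genes on the revertant array (circles) and the gene-trapped array (squares), 1 array per group, with the background limit of each array as a dashed line. T, Eomes and Tbx3 sit to the right on the gene-trapped array, Tbx20 far to the left of its revertant value (185 against 78.0), and Tbx1 and Tbx18 below both limits.

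Tbx2 and Tbx3 encode closely related repressors that hold back chamber muscle genes in parts of the heart and act in limb patterning, and Tbx3 also supports self-renewal of embryonic stem cells. Tbx3 had spot signals of 565 and 727 and log2 levels of 9.09 and 9.68, a difference of 0.58. Its ratio of 1.5 lies on the threshold: it counted in the main setting but not under median scaling, which gave 0.49, nor after subtraction of block medians, which gave 0.582 where the threshold is 0.585. The authors' deposited table gives 357 and 603, a ratio of 1.69.

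The scanner's local background around the Tbx3 spot read 559.9 for revertant and 614 for gene-trapped cells, against which its spot stood little higher in the former. Subtracting it left 5.53 and 113, and the normalized difference then came to 4.80. That column followed spot brightness over all 23471 probes, with log2 correlations of 0.97 and 0.96 across probes, and it is therefore subtracted only as an alternative setting. For T the local background was 29.5 and 27.1, well under the spot signals. For every other member it made up most of the spot signal on both arrays. It read 557 and 624 for Eomes, and 155 and 61.2 for Tbx20. Subtracting it left 86.3 and 147 for Eomes, and 29.5 and 16.8 for Tbx20.

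Tbx2 had spot signals of 69.9 and 69.6, nearly the same on both arrays. Normalization placed it at log2 levels of 6.55 and 6.79, a difference of 0.24, and it stayed positive in the other 9 settings, from 0.16 to 0.87. The highest of these came with the local background subtracted, which left 14.4 and 21.5 before scaling. Only T, Eomes and Tbx3, that is 3 of the 8 members above background, also had a higher raw signal in gene-trapped cells.

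Tbx4 and Tbx5 encode the factors of hindlimb and forelimb outgrowth, and Tbx5 is also needed for the heart. Tbx4 had spot signals of 47.8 and 43.0 and a log2 difference of 0.09, and Tbx5 spot signals of 32.8 and 27.0 and a difference of -0.03. Both differences are smaller than the spread between positive-control spots, which was taken without quantile normalization. Under median and 75th percentile scaling Tbx5 turned to 0.04 and 0.18. In the RefSeq gene table Tbx2 and Tbx4 lie side by side, as do Tbx3 and Tbx5, with 0 protein-coding genes between the partners. The differences of the neighbours were 0.24 and 0.09 for the first pair and 0.58 and -0.03 for the second. With the local background subtracted they were 0.87 and 1.83, and 4.80 and -0.23. Whether neighbours share a difference was not tested.

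Tbx20, the member of the heart and lateral plate that is needed for growth of the heart tube, was the 1 measured gene of the family that was lower in gene-trapped cells by 1.5-fold or more. Its spot signal was 185 in revertant cells against 78.0 in gene-trapped cells. Its log2 level was 7.61 and 6.91, a difference of -0.70 or 1.63-fold lower. All 9 other settings kept it below 0, from -1.11 to -0.64. In the authors' deposited table it stood at 107 and 49.4, a ratio of 2.16.

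Tbx1, the gene of the pharyngeal arches and outflow tract that is lost in DiGeorge syndrome, had spot signals of 21.9 and 19.2. Tbx18, which marks the sinus horns, epicardium and anterior part of somites, had 21.7 and 19.9. Both lay below the mean of the blank spots on both arrays, 22.5 and 20.1. They were not well above background, and no difference is given for them.

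Among the 8 members with signal over the limit on both arrays, 2 were higher by 1.5-fold or more (T and Tbx3) and 1 was lower (Tbx20). Over all 13753 named genes over the limit, 2.28% were higher by that size and 3.52% lower, and under median scaling these numbered 171 and 717 in place of 314 and 484. Differences of dim genes are made smaller by the offset of 50: among the 5855 genes with a mean log2 level of 7 or more the shares were 4.82% and 7.28%. At 2-fold 0 members counted, against 1.41% of all genes. In the authors' deposited table T and Tbx20 passed 2-fold, where 6.03% of 14203 genes did. The median difference of the 8 members was 0.22, against 0.01 over all genes, and with so few genes nothing particular to the family is read from it.

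How far each difference moved with the processing is plotted for the 8 members.

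**Figure D2:**
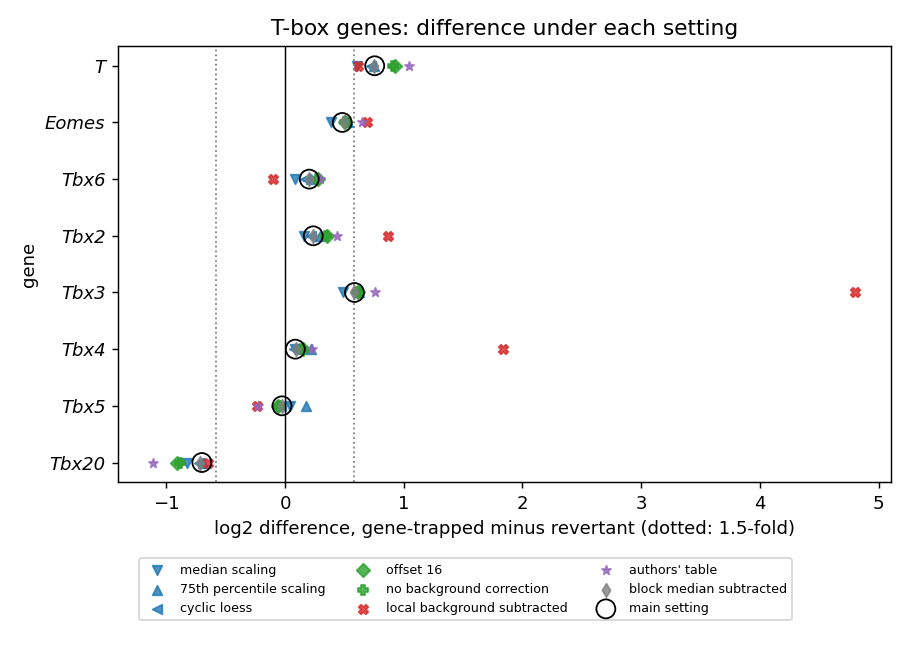
Log2 difference (gene-trapped minus revertant) of the 8 T-box genes above background on both arrays in the main setting (open circles) and in 8 other settings (symbols), with dotted lines at 1.5-fold. T, Eomes, Tbx2, Tbx3 and Tbx4 stay above 0 in every setting plotted and Tbx20 below 0, Tbx5 and Tbx6 cross 0, and Tbx3 reaches 4.80 with the local background subtracted.

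The other T-box genes on the array gave no difference of 1.5-fold in the main setting. Of the 7, Tbx21, Mga and Tbx10 were above background on both arrays. Tbx21, the T-bet gene of lymphocytes, had spot signals of 289 and 249 and a log2 difference of 0.11. Mga, whose protein joins a T-box to a MAX-binding domain, had spot signals of 157 and 122 and a difference of 0.00034. Tbx10 lay near the limit with 27.6 and 25.8. Tbr1 and Tbx19 were below the limit on both arrays, and Tbx15 and Tbx22 passed it on the revertant array only, with differences of -0.03 and -0.01. These genes are dim, and the authors' deposited table gives Tbx15 -0.65, Tbx22 -0.24 and Tbx10 0.51.

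Upstream of T and Eomes, 15 of 16 genes of the Nodal, WNT, BMP and FGF signals and their transducers were above background. By the 1.5-fold size 1 of these was higher and 1 lower. For this and the next lists, the shares over all genes above background were 2.28% higher and 3.52% lower. Among genes with a mean log2 level of 7 or more they were 4.82% and 7.28%. Tdgf1, a co-receptor for Nodal, had spot signals of 707 and 2249 and a log2 difference of 1.88. Smad4, the partner shared by the Nodal and BMP transducers, had 960 and 457 and a difference of -0.77. The ligand gene Nodal had 0.32 and Wnt3 0.39, both under the size used here.

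Known targets of T and Tbx6 included 2 genes at least 1.5-fold higher and 0 lower among 12 above background. Dll3, a Notch-pathway gene of presomitic mesoderm, had spot signals of 52.9 and 107 and a difference of 0.96. Snai1, the repressor of E-cadherin in the streak, had 47.3 and 71.5 and a difference of 0.60. The list had 1 gene higher by 1.5-fold under median scaling and 4 with the local background subtracted, where Snai1 came to 0.49. The median of the 12 was 0.14. Msgn1, a direct target of both factors, had 24.6 and 22.8, at the limit. Fgf8 was at -0.10, Dll1 at 0.30 and Mesp2 at 0.19. With the local background subtracted Dll1 turned to -0.08 and Mesp2 to -0.06, so neither is given a direction.

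Known targets of Eomes included 3 genes at least 1.5-fold higher and 0 lower among 9 above background. Over all genes above background 2.28% were higher by that size and 3.52% lower. Mixl1 had spot signals of 181 and 669 and a difference of 1.99, and Gsc 85.2 and 241 and 1.5. Lhx1 had 341 and 537 and a difference of 0.87. All 3 encode homeobox factors of the streak. Mesp1, the gene through which Eomes opens the cardiac path, had 455 and 550 and a difference of 0.51, and Evx1 had 0.54. Of the targets that also mark endoderm, Gata6 had spot signals of 695 and 712 and a difference of 0.26, Sox17 41.1 and 28.3 and -0.14, and Foxa2 27.4 and 27.2 and 0.10, while Cer1 was below the limit on both arrays. Sox17 and Foxa2 are dim, and the authors' deposited table gives them -0.80 and 0.90. The median of the 9 was 0.51, and Fgf8, Foxa2 and Mesp1 stand on this list and on that of T and Tbx6.

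Of the cardiac partners and targets of Tbx5, Tbx20, Tbx2, Tbx3 and Tbx18, 12 of the 14 listed had a probe matched by name (Nkx2-5 and Mef2c had none) and 10 were above background, with 0 at least 1.5-fold higher and 1 lower. That gene was Tnnt2, cardiac troponin T, with spot signals of 932 and 123 and a difference of -2.38. Hand1, a factor of lateral plate and heart, had 214 and 115 and a difference of -0.44, Isl1 -0.09 and Gata4 0.21. Hand1 turned to 0.55 with the local background subtracted, the 1 of 9 settings in which it was above 0, so no direction is given for it. Nppa, a target held between Tbx5 and Tbx2, was near the limit at 28.04 and 24.05. The T-box co-repressors of the Ripply, Tle and Hdac families showed 0 of 7 genes at 1.5-fold (Ripply1 and Hdac1 had no probe matched by name), and their differences ran from -0.0020 (Tle1) to 0.14 (Ripply3). Tle1 was at the limit with 25.4 and 22.3, and Tle2, Ripply2 and Ripply3 were dim, so the offset of 50 makes their differences smaller. The authors' deposited table gives Ripply3 0.40, Ripply2 0.31, Tle1 -0.05 and Tle2 -0.04.

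The single genes of these lists are plotted beside the family.

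**Figure D3:**
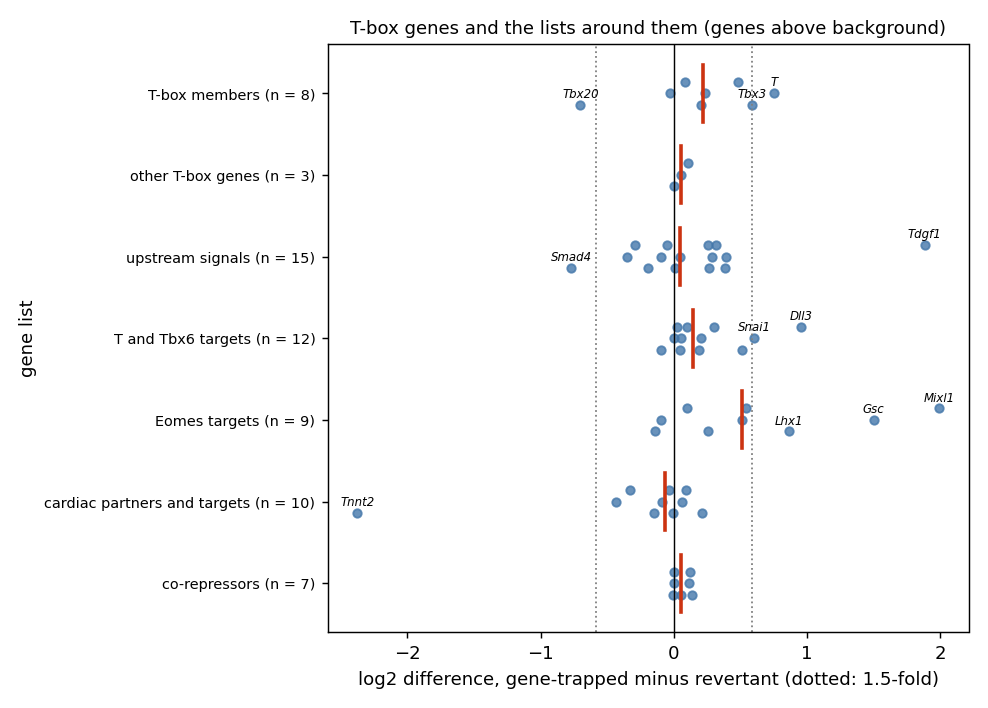
Log2 difference of each gene above background on both arrays in 7 lists, the T-box members at the top; points are genes, red bars list medians and dotted lines 1.5-fold. The Eomes targets spread furthest to the right with Mixl1 at 1.99 and Gsc at 1.5, the co-repressors, several of them dim, stay next to 0, and Tnnt2 stands alone at -2.38.

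Markers of other cells that the culture or gate could hold are given beside the family because several members are expressed outside mesoderm, in a bulk sample where fewer cells of a type and less RNA per cell cannot be told apart. For the marker lists here and below, the shares over all genes above background were 2.28% higher and 3.52% lower by 1.5-fold or more. OP9 stromal markers had 4 of 10 genes at least 1.5-fold lower and 0 higher, with a median of -0.38. Their summed normalized signal, which the brightest probes dominate, was 5635 in revertant against 2629 in gene-trapped cells, and 1331 against 962 without Acta2 and Col5a1. Col5a1 had -1.61, Col1a1 -1.49, Acta2 -1.30 and Col3a1 -0.79, whereas Cxcl12 had 0.20, Lum 0.06 and Thy1 0.02, and Dcn was below the limit on both arrays. Cxcl12 and Thy1 turned to -0.73 and -0.20 with the local background subtracted, while Lum was above 0 in all 9 settings. The median of this list is opposite in sign to the differences of T and Tbx3 and the same as that of Tbx20, and its part in these differences was not tested.

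Nascent mesoderm markers had 3 of 11 genes higher and 1 lower, with a median of 0.39 and a summed signal of 3579 and 5453, or 2610 and 2769 without Etv2 and Mixl1. Mixl1, Lhx1, Mesp1, Evx1 and Fgf8 stand also on the list of Eomes targets, so the values of Mixl1 and Lhx1 are those counted above. Etv2, the factor that starts blood and vessel fates, had 1.30, whereas Kdr had -0.65. Cardiomyocyte markers had 0 of 6 higher and 1 lower (Tnnt2), with a summed signal of 2073 and 1337, or 1183 and 1166 without Tnnt2. Myl7 had spot signals of 975 and 808 and a difference of -0.01. Pluripotency markers had 1 of 7 higher, Tdgf1, and 0 lower. Their median was 0.06, with Nanog at 0.03 and Klf4 at -0.36, and Pou5f1 and Sox2 had no probe matched by name. The summed signal was 2037 and 3678 with Tdgf1, 1355 and 1161 without it, and 415 and 429 without Tdgf1 and Klf4. The part of these cells in the T-box values was not tested.

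**Figure D4:**
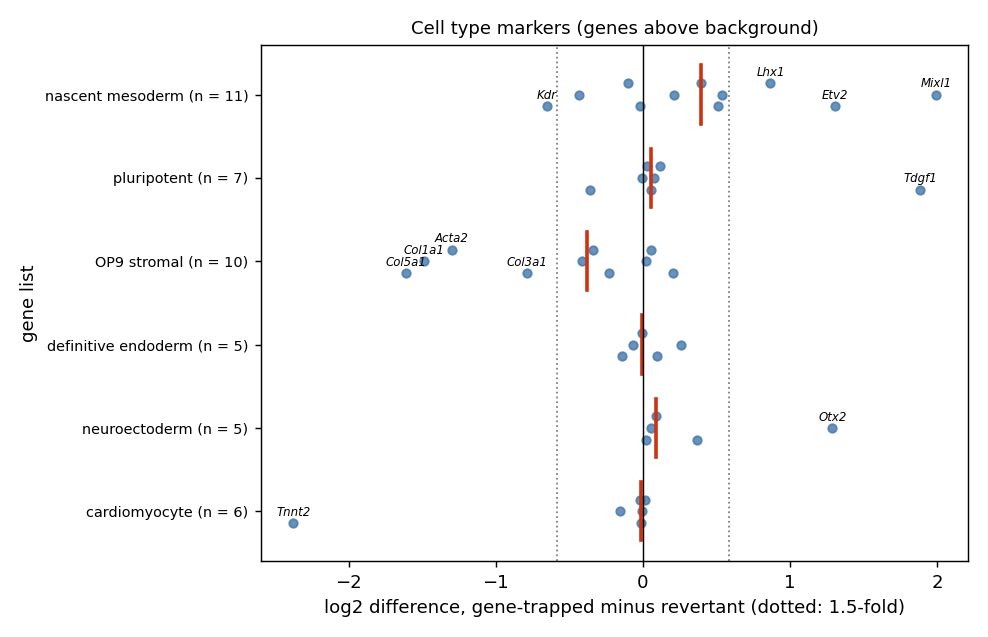
Log2 difference of each marker above background on both arrays in 6 cell type lists; points are genes, red bars list medians and dotted lines 1.5-fold. The OP9 stromal genes lie mostly to the left (median -0.38) and the nascent mesoderm genes mostly to the right (median 0.39).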

How the data were processed

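RNA of 1 revertant and 1 gene-trapped sample was amplified, coupled to Cy5 and hybridised to TORAY arrays, per the labels' protocols. Linear spot intensity, not background-subtracted, was deposited as scanner output, joined from 3 scanner gains by least squares per the file headers. How the authors made their deposited table of processed intensity is not given in the sources used here; both columns have a median of 25. Its log2 differences had a correlation of 0.90 with the log2 ratios of the spot signals across 18963 probes above background, which sets its direction as gene-trapped over revertant, although single probes near 0 can differ in sign.

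Spot medians were corrected by the normexp method with an offset of 50 (limma 3.58.1, R 4.3.3), then quantile-normalized and put on the log2 scale. Control spots and 2 flagged probes were left out. Fold changes are ratios of these normalized signals. The brightest probe represented a gene, and names are those of the platform annotation, which can be old. Steps were tested on simulated data; Python 3.11.15 and pandas 2.3.3 made the tables. All members are named, and of each list up to 4 genes past 1.5-fold, others named having been chosen after their values were seen. The members and lists were chosen with earlier results of these data known. The 10 other settings were median, 75th percentile and cyclic loess scaling, an offset of 16, no correction, subtraction of the local background, the authors' table, no filter, a limit of 4 SD and the mean of a gene's probes. Subtraction of the median difference of each array block was added after the files had been seen. The number of arrays limits the precision.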

Additional observations from a re-analysis of the deposited data

How the results depend on the processing

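No paired analysis was possible because only 1 array stands on either side. The count of 1 T-box gene at least 1.5-fold lower, Tbx20, was the same in all 11 alternatives. Of genes at least 1.5-fold higher there were 1 under median scaling, 1 after subtraction of block medians, 3 in the authors' table and 5 with the local background subtracted, in place of 2. Tbx3 sat on the threshold in the main setting and drops out in the first 2. Eomes joins in the authors' table, and Eomes, Tbx2 and Tbx4 join in the last. Of all genes, 2.28% were higher by that size and 3.52% lower in the main setting. The shares were 1.24% and 5.21% under median scaling, and 2.17% and 3.55% after subtraction of block medians. They were larger, 8.82% and 10.9%, in the authors' table. With the local background subtracted they were 15.99% and 16.8%. In the authors' table there were 2 members 2-fold apart and the members' median was 0.37, and subtraction of the local background also gave 2 such members and a median of 0.65, in place of 0 and 0.22. The share of all genes 2-fold apart was 6.03% in the authors' table and was not computed for the local background setting. The median had its lowest value, 0.12, under median scaling and was above 0 in all 11 alternatives. The cause was not tested. The 75th percentile scaling puts the median of all genes at 0.15, so small positive values there are no change. Medians of the upstream signals and the co-repressors turned to -0.17 and -0.10 with the local background subtracted, the one setting in which each was below 0. Each member has 1 probe, so averaging probes changes no member. Low signal over background limits Tbx5 most among the 8 measured members, at 6.39 blank SDs above the blank mean on the gene-trapped array.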

Other observations

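Of 8 listed neuroectoderm markers 7 had a probe matched by name (Sox1 had none) and 5 were above background on both arrays, with 1 at least 1.5-fold higher in gene-trapped cells and 0 lower. That gene was Otx2, a homeobox factor of epiblast and forebrain, with spot signals of 141 in revertant cells against 311 in gene-trapped cells and a log2 difference of 1.29. Nes had 0.37 and Zic1 0.09, and Pax6 and Neurog2 were below the limit on both arrays. Of 9 definitive endoderm markers 5 were above background, with 0 at least 1.5-fold apart. Beside both lists, 2.28% of all genes above background were higher by that size and 3.52% lower. Gata6 was at 695 and 712 and a difference of 0.26, Cxcr4 had -0.07, and Ttr, Afp, Cer1 and Foxa1 were below the limit on both arrays.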
